A study of Mus musculus with 20 samples.

Results

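The 6 genes described here belong to the circadian clock loop and were followed through the day in plasma cells of the gut. They are Arntl, Clock and Npas2, which encode the activators BMAL1, CLOCK and NPAS2, and Nr1d1, Nr1d2 and Rora, which encode the nuclear receptors REV-ERBα, REV-ERBβ and RORα. They were taken by name, as the rows of the raw count table whose Ensembl identifier carries one of these symbols, and all 6 were found among 47069 genes. Plasma cells that were CD138+ and IgA+ had been sorted by flow cytometry from a single-cell preparation of the small intestinal lamina propria, made with collagenase D and DNase I. The mice were wild-type C57BL/6 animals, 1 per library, with 5 at each of 4 zeitgeber times (ZT), ZT0, ZT6, ZT12 and ZT18. ZT counts the hours from lights on, so that ZT0 to ZT12 is the light phase and the time after ZT12 is the dark phase. No treatment is given in the labels, no age is given there for these animals, and all 4 groups share genotype and strain. Poly-T selection and bulk sequencing followed, so that fewer cells with a transcript and less of it per cell cannot be told apart.

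The clock of mammalian cells is a feedback loop of transcription. BMAL1 pairs with CLOCK, or with its relative NPAS2, and the pair binds E-box sequences to switch on the period and cryptochrome genes, whose proteins then inhibit it. A further arm joins the receptors to the activators: BMAL1 and CLOCK drive the REV-ERB genes, REV-ERB proteins repress Arntl through ROR response elements, and ROR proteins activate Arntl through the same elements. In many mouse tissues, the liver among them, Arntl RNA is highest around the end of the night and Nr1d1 RNA in the later light phase. REV-ERB proteins bind heme and work through the corepressors NCoR, and RORα is also known as a regulator of type 2 innate lymphoid cells.

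The libraries held 35.6 to 68.0 M counts (M, mega), of which 58.0% to 67.7% fell in immunoglobulin genes and Jchain. Counts per M counts (CPM) below are scaled between libraries by TMM. The 9 listed markers of plasma cells, which include Igha, Jchain and Sdc1 (the gene of CD138), summed to 346058 to 583714 CPM per library. Markers of other cells were also detected, at far lower summed levels, with 59.0 to 87.3 CPM for 10 markers of macrophages and dendritic cells, 42.3 to 81.5 for 12 of enterocytes and 26.1 to 38.2 for 15 of T cells and innate lymphoid cells. The 10 markers of stromal and endothelial cells summed to 26.6 to 37.7 CPM. The threshold for a call was an adjusted p (Benjamini-Hochberg) under 0.01 from an edgeR quasi-likelihood fit over all 13967 genes that passed a filter on low counts. Of the 6 members, 5 passed, each with at least 49 counts in every library, and Npas2 did not.

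The promoters of Arntl and Nr1d1 are shown because these genes carried the opposite patterns described below and are joined to each other in the loop through ROR response elements and E-boxes. RefSeq sequences (GRCm38.p6) covered 250 bases before to 50 bases after each annotated start, in 9 windows for the 6 members. The windows shown are chr7:113207261-113207560 on the plus strand for the downstream of the 2 annotated Arntl starts, and chr11:98775328-98775627 on the minus strand for Nr1d1, each 300 bases and read 5′ to 3′. Capitals mark the core of a ROR response element (TAGGTCA) in Arntl and the reverse complement of an E′-box (CACGTT, read as AACGTG) in Nr1d1.
Arntl: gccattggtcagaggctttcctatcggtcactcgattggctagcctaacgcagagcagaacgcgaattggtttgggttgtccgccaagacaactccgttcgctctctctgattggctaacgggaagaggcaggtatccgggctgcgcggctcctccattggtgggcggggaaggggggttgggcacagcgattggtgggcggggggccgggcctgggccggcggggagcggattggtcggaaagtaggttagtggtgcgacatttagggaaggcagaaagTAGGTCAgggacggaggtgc
Nr1d1: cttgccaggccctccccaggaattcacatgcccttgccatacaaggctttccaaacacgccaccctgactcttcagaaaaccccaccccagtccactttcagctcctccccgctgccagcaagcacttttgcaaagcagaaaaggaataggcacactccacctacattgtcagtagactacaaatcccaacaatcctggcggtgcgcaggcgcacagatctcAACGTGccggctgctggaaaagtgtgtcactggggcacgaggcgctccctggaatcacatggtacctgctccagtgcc
The element core in Arntl began at base 31 from that start, past the end of the window of the upstream start, which held no match. The E′-box in Nr1d1 lay at base -28. Both strands of all windows were searched for the E-box CACGTG, the E′-box CACGTT, the ROR element cores TAGGTCA and TGGGTCA, and the D-boxes TTATGTAA and TTACGTAA. Of 32851 RefSeq windows, 7.15% held the E-box, 4.68% the E′-box, 6.45% an element core and 1.06% a D-box. Whether the windows of the members matched more often than this was not tested, and a match shows letters, not binding. The E-box and the D-boxes matched in none of the 9 windows of the members, and no match was found in the windows of Clock, Npas2, Nr1d2 and Rora, which says only that these letters are not in these windows. The shorter AGGTCA, which is the 3′ part of an element core and so overlaps the match in Arntl, was also found in the Nr1d2 window at base -77 and in 1 of 3 Clock windows at base -119 on the reverse strand. It occurred in 16.3% of all windows.

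All 5 tested members differed between the times (edgeR), where 19.5% of all tested genes did. Arntl was highest at ZT0 and ZT18, Nr1d1 was highest at ZT6 and ZT12, Nr1d2 at ZT6, and Rora was lowest at ZT0. Clock was higher at ZT0 and ZT12 than at ZT6 and ZT18. Adjusted p-values for any difference were 0.000151 for Arntl, 0.00230 for Clock, 6.50e-07 for Nr1d1, 9.51e-06 for Nr1d2 and 0.00216 for Rora.

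**Figure D1:**
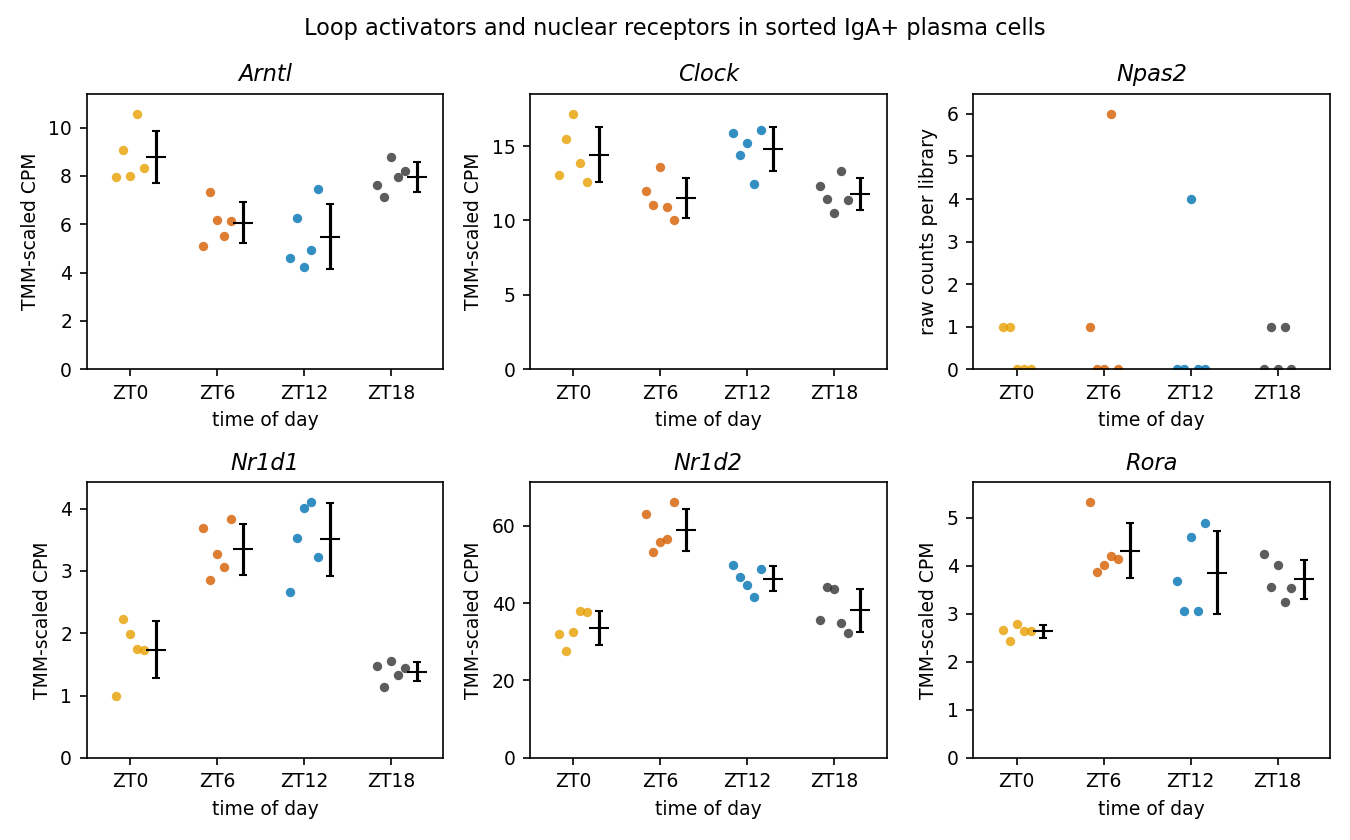
Each point is 1 library, with TMM-scaled CPM on the y axis (raw counts for Npas2) and time of day on the x axis, and the bar beside each group of 5 libraries is the mean ± SD (none for Npas2). Arntl lay between 7.97 and 10.6 CPM at ZT0 and between 4.22 and 7.45 CPM at ZT12, while Nr1d1 lay between 0.994 and 2.23 CPM and between 2.67 and 4.10 CPM at the same times.

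Arntl (ENSMUSG00000055116, chr7:113207465-113314126, plus strand, GENCODE M21 on GRCm38), the non-redundant activator of the loop, held 164 to 412 counts per library. At ZT0 its level was 7.97, 9.08, 7.98, 10.6 and 8.33 CPM in the 5 animals, and at ZT18 it was 7.64, 7.12, 8.79, 7.96 and 8.22 CPM. In the light phase and at lights off it was 5.11, 7.34, 6.16, 5.54 and 6.15 CPM at ZT6 and 4.60, 6.24, 4.22, 4.92 and 7.45 CPM at ZT12. Every ZT0 library was above every ZT6 and every ZT12 library, whereas the ZT18 group overlapped both, through 1 library of ZT6 and 1 of ZT12 that exceeded its lowest value of 7.12 CPM. Groups were as distinct in 10.3% of all tested genes between ZT0 and ZT6 and in 7.23% between ZT0 and ZT12. In the order of the 4 times, the means were 8.78 ± 1.09, 6.06 ± 0.843, 5.49 ± 1.34 and 7.95 ± 0.624 CPM (SD, n = 5 each). The summed stromal and endothelial markers were at 29.2 to 37.6 CPM at ZT0, 34.0 to 37.7 at ZT6, 26.6 to 28.5 at ZT12 and 29.6 to 37.4 at ZT18. Of these 10 genes, 6 were tested and 3 differed between the times, against 19.5% of all tested genes. The part of these cells in the Arntl values was not tested.

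On the log2 scale, Arntl fell by 0.68 from ZT0 to ZT12 (SE 0.13, adjusted p = 0.000427), where 3.86% of all tested genes were called. It was also lower at ZT6 than at ZT0 (-0.53 ± 0.13 SE, adjusted p = 0.00293), and it rose from ZT12 to ZT18 (0.54 ± 0.13 SE, adjusted p = 0.00272). These comparisons called 8.78% and 9.94% of all tested genes. ZT18 and ZT6 differed by 0.39 ± 0.13 (SE, adjusted p = 0.0327), short of the threshold. The fall to ZT12 was called in all 28 alternatives, with an adjusted p of at most 0.00331. The fall to ZT6 was not called without ZT0 replicate 4 (adjusted p = 0.0157), ZT6 replicate 1 (0.0132) or ZT6 replicate 4 (0.0118), or without 3 epithelial libraries named below (0.0119), and the rise to ZT18 not without ZT12 replicate 1 (0.0124), replicate 3 (0.0155) or replicate 4 (0.0120).

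Nr1d1 (ENSMUSG00000020889, chr11:98767932-98775333, minus strand), whose REV-ERBα protein represses Arntl, had 49 to 285 counts per library. Its level was 0.994, 2.23, 1.98, 1.74 and 1.73 CPM at ZT0 and 1.47, 1.14, 1.55, 1.32 and 1.43 CPM at ZT18. It was 3.69, 2.86, 3.27, 3.06 and 3.84 CPM at ZT6 and 2.67, 3.52, 4.01, 4.10 and 3.22 CPM at ZT12. All 10 libraries of ZT6 and ZT12 were above all 10 of ZT0 and ZT18, with 2.67 CPM as the lowest of the former and 2.23 CPM as the highest of the latter. Within each of these pairs of times the groups overlapped. Between single times, groups were as distinct in 10.3% of all tested genes for ZT0 and ZT6 and in 7.23% for ZT0 and ZT12. The share was 11.5% for ZT6 and ZT18 and 12.6% for ZT12 and ZT18. How many genes separated all 4 times in this way was not counted.

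The rise of Nr1d1 from ZT0 was 0.95 ± 0.19 by ZT6 (log2, SE, adjusted p = 0.000479) and 1.02 ± 0.19 by ZT12 (adjusted p = 0.000346). It fell by 1.34 from ZT12 to ZT18 (SE 0.19, adjusted p = 3.72e-06), and ZT18 was lower than ZT6 by a log2 difference of -1.27 ± 0.19 (SE, adjusted p = 1.27e-05), where 8.24% of all tested genes were called. These 4 calls were kept in all 28 alternatives. ZT12 and ZT6 differed by 0.07 ± 0.18 (SE, adjusted p = 0.867), so that no higher of the pair could be named. Low counts set part of the spread: at ZT18 the coefficient of variation of Nr1d1 was 11.4% between animals and 13.5% was expected from counting alone, against 26.5% and 11.7% at ZT0. The gene shares 263 exon bases with Thra on the other strand, and no source here states that counting used strand. Thra itself had no called difference (adjusted p = 0.368), and its means in the order of the times were 2.58 ± 0.436, 3.15 ± 0.565, 3.16 ± 0.414 and 2.57 ± 0.849 CPM (SD, n = 5 each).

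Nr1d2 (ENSMUSG00000021775, chr14:18204054-18239127, minus strand), the gene of REV-ERBβ, had the most counts of the members, 1166 to 3200 per library. The 5 animals of ZT6 stood alone at 63.0, 53.1, 55.8, 56.5 and 66.0 CPM. At ZT12 the level was 49.8, 46.8, 44.8, 41.5 and 48.7 CPM, and at ZT0 it was 32.0, 27.6, 32.6, 37.9 and 37.7 CPM. The ZT6 group overlapped no other group, and ZT12 did not overlap ZT0. The ZT18 values of 35.7, 44.3, 43.8, 34.9 and 32.1 CPM reached into both of those groups. ZT6 did not overlap ZT0 in 10.3% of all tested genes, ZT12 in 7.95% and ZT18 in 11.5%. Between ZT12 and ZT0 this share was 7.23%.

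Nr1d2 rose from ZT0 to ZT6 by 0.81 ± 0.10 (log2, SE, adjusted p = 7.49e-06) and was lower at ZT18 than at ZT6 (-0.63 ± 0.10 SE, adjusted p = 0.000123). Both calls held in all 28 alternatives. The difference of ZT12 from ZT0 was 0.46 ± 0.10 (SE, adjusted p = 0.00382), but this call was lost without ZT0 replicate 1 (adjusted p = 0.0147) or 3 (0.0134), without ZT12 replicate 1 (0.0140), 2 (0.0111) or 5 (0.0128), with library totals in place of TMM (0.0130) and with a replicate block (0.0191). It was also lost without the 3 libraries highest in epithelial markers or the 3 highest in T cell and lymphoid markers, which are named below (0.0106 for each). From ZT6 to ZT12 the step was -0.35 ± 0.10 (SE, adjusted p = 0.0245). That step was not called although the groups did not overlap, as happened in 7.95% of all tested genes. Of 28 alternatives, 4 called it: library totals (-0.47, adjusted p = 0.000220), DESeq2 (0.00186), leaving out the 3 libraries highest in T cell and lymphoid markers (0.00893) and leaving out ZT0 replicate 2 (0.00941). Without ZT6 replicate 1 the adjusted p was 0.0654. Over this step the Nr1d2 mean went from 58.9 ± 5.40 to 46.3 ± 3.29 CPM, and the Nr1d1 mean from 3.34 ± 0.415 to 3.50 ± 0.589 CPM (SD, n = 5 each). Whether the receptor genes differed from each other in this step was not tested.

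Markers of epithelial cells moved in part with the receptor genes. The sum of 12 enterocyte markers was 42.3 to 49.3 CPM in ZT0 libraries, 45.2 to 81.5 in ZT6, 54.6 to 79.3 in ZT12 and 54.4 to 71.1 in ZT18 libraries, so its low time was ZT0. Rora, described next, was likewise lowest at ZT0, with every library of the other times above it, whereas Nr1d1 was low at ZT0 and again at ZT18. Most of the sum was Epcam, with 1758 to 3857 counts per library and the only difference called among the 9 of 12 that were tested (19.5% of all tested genes were), while Alpi, Sis and Apoa1 were at 0 counts in at least 1 library. Without the 3 libraries with the largest epithelial marker sums (ZT6 replicate 4, ZT12 replicate 2 and ZT18 replicate 3), ZT12 minus ZT0 was 1.01 for Nr1d1 (adjusted p = 0.00148) and 0.46 for Nr1d2 (adjusted p = 0.0106). The part of epithelial cells in the receptor values was not tested otherwise.

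Rora (ENSMUSG00000032238, chr9:68653786-69388246, plus strand), whose RORα protein activates Arntl, had 99 to 236 counts per library. At ZT0 all animals lay close together, at 2.66, 2.43, 2.79, 2.64 and 2.64 CPM. The level was 5.32, 3.86, 4.02, 4.21 and 4.15 CPM at ZT6, and 3.67, 3.06, 4.60, 3.05 and 4.90 CPM at ZT12. At ZT18 it was 4.23, 3.56, 4.02, 3.24 and 3.53 CPM. Every library of the other times was above every ZT0 library, and the other times overlapped one another. ZT6 and ZT0 did not overlap in 10.3% of all tested genes.

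Among the comparisons of times, only ZT6 against ZT0 was called for Rora (log2 difference 0.71 ± 0.15 SE, adjusted p = 0.000768). ZT12 against ZT0 gave 0.55 ± 0.15 (SE, adjusted p = 0.0157), with no overlap between the groups, and passed with DESeq2 (adjusted p = 0.00698) or without ZT12 replicate 4 (0.00668). ZT0 against ZT18 gave -0.50 ± 0.15 (SE, adjusted p = 0.0203), again without overlap. Among these, 7.23% of all tested genes did not overlap between ZT12 and ZT0, and 10.1% between ZT0 and ZT18. At ZT0 the animals varied by 5.02%, less than the 9.19% that counting alone would give.

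Because RORα is also made by innate lymphoid cells and T cells, the markers of these cells stand beside the Rora values. The sum of 15 such markers was 30.4 to 36.0 CPM in the ZT0 libraries, 29.4 to 38.2 in those of ZT6, 27.6 to 32.2 in those of ZT12 and 26.1 to 30.7 in those of ZT18, and most of it was Cd4, with 746 to 1710 counts per library. Of these 15 genes, 10 passed the filter and 2 differed between the times, Cd4 and Tcf7, against 19.5% of all tested genes. Tcf7, a transcription factor of lymphocytes, was at 2.75, 5.25, 2.80 and 3.55 CPM in the order of the times. Like Rora it was higher at ZT6 than at ZT0, and it fell from ZT6 to ZT12 (edgeR adjusted p = 0.00237). For Rora neither ZT12 minus ZT6 (edgeR adjusted p = 0.548) nor ZT12 minus ZT0 (0.0157) was called. Whether the 2 genes differed in these steps was not tested. Next to the 99 to 236 counts of Rora, the T cell receptor gene Trac had 11 to 48 counts per library, Il7r 6 to 56, Thy1 2 to 34 and Kit 1 to 33. Cd3e had 1 to 19 counts, and Cd3d, Cd3g, Cd5, Cd8a, Gata3, Il1rl1, Il17a and Ncr1 were at 0 in at least 1 library and at most at 31 in any. Without the 3 libraries with the largest marker sums (ZT0 replicates 2 and 5 and ZT6 replicate 2), the Rora difference between ZT6 and ZT0 was 0.71 with an adjusted p of 0.0107, and the p for any difference was 0.0284. The part of these cells in the Rora values was not tested otherwise.

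Clock (ENSMUSG00000029238, chr5:76209868-76304792, minus strand), which encodes the partner of BMAL1, had 401 to 884 counts per library. Its level was 13.1, 15.4, 17.2, 13.8 and 12.6 CPM at ZT0 and 15.9, 14.4, 15.2, 12.5 and 16.1 CPM at ZT12. It was 11.98, 11.03, 13.6, 10.9 and 10.03 CPM at ZT6 and 12.3, 11.4, 10.5, 13.3 and 11.4 CPM at ZT18. All 4 groups overlapped one another, and the means of ZT0 (14.4 ± 1.87) and ZT12 (14.8 ± 1.47) stood above those of ZT6 (11.5 ± 1.35) and ZT18 (11.8 ± 1.06 CPM, SD, n = 5 each).

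In the edgeR fit of all libraries no single pair of times was called for Clock, although 4 of its 6 pairs had an unadjusted p under 0.05. The nearest were ZT12 minus ZT6 (0.36 ± 0.09 on the log2 scale, SE, adjusted p = 0.0101), ZT18 minus ZT12 (-0.33 ± 0.09, 0.0130) and ZT6 minus ZT0 (-0.33 ± 0.09, 0.0134). DESeq2 called these 3, with adjusted p-values of 0.00460, 0.00885 and 0.00884. The calls of edgeR lay close to the threshold: ZT12 minus ZT6 was called with a total of 10 counts as the filter (0.00730), without immunoglobulin genes (0.00896) and without any 1 of 5 single libraries (0.00413 to 0.00959), ZT18 minus ZT12 without any 1 of 3 (0.00427 to 0.00967) and ZT6 minus ZT0 without any 1 of 4 (0.00501 to 0.00980). ZT12 and ZT0 differed by 0.04 ± 0.09 (SE, adjusted p = 0.885). What was called was the alternation itself, the sum of ZT0 and ZT12 minus that of ZT6 and ZT18, at 0.66 on the log2 scale (adjusted p = 0.000580), which 9.45% of all tested genes passed in either direction. It was called in all 28 alternatives, with an adjusted p of at most 0.00501.

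**Figure D2:**
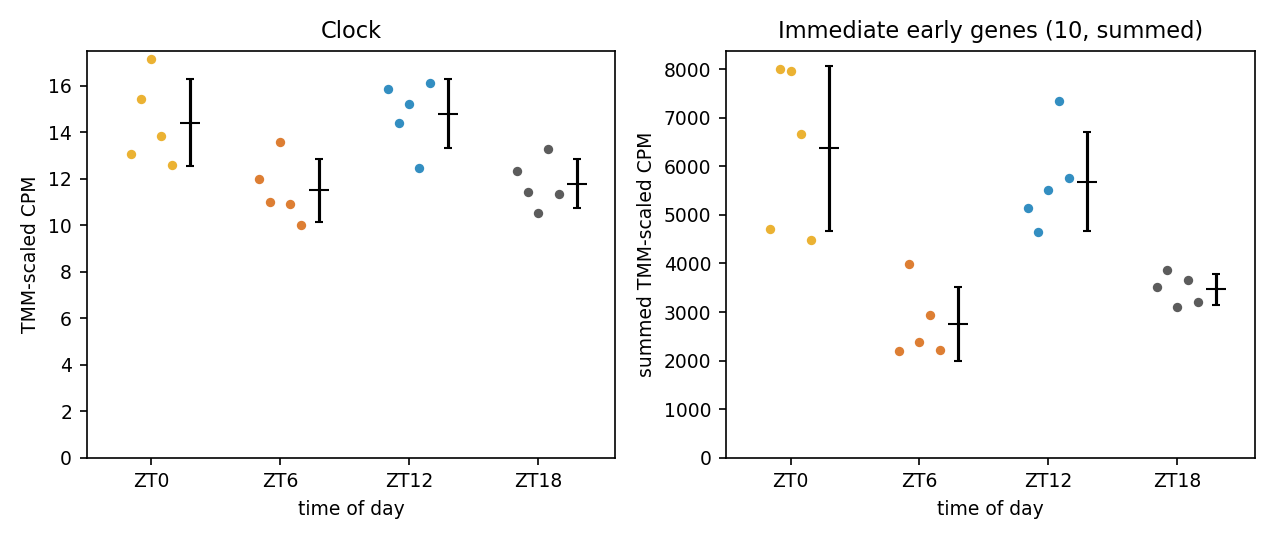
Points are single libraries by time of day, with bars for the mean ± SD of 5 libraries. The left panel gives Clock in TMM-scaled CPM and the right panel the summed CPM of 10 immediate early genes. Clock had means of 14.4 and 14.8 CPM at ZT0 and ZT12 and of 11.5 and 11.8 CPM at ZT6 and ZT18, and the summed early genes were also higher at ZT0 and ZT12.

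Immediate early genes such as Fos and Jun, which are switched on within minutes of stimulation and also by tissue digestion, moved in part in the same way. Of 10 listed, 7 differed between the times, against 19.5% of all tested genes, and 7 had a called alternation with ZT0 and ZT12 high, against 9.45% called in either direction. Fos had an alternation of 2.79 on the log2 scale (adjusted p = 0.000142) and Jun of 2.45 (0.000291). Egr2 (1.25, adjusted p = 0.0197), Atf3 (0.32, 0.240) and Nr4a1 (-0.18, 0.721) did not pass, and Atf3 had its highest mean at ZT18. The summed level of the 10, most of which was Fosb (means of 1670 to 3908 CPM), was 4492 to 8012 CPM at ZT0 and 4655 to 7348 at ZT12, against 2190 to 3991 at ZT6 and 3102 to 3876 at ZT18. Within ZT0, replicates 2 and 3, which were highest in Clock, were also highest in these genes, with 8012 and 7968 CPM. Within ZT12, replicate 4 was highest in these genes (7348 CPM) and lowest in Clock (12.5 CPM). Within ZT6, replicate 2 was highest in these genes (3991 CPM) and replicate 3 in Clock (13.6 CPM). Within ZT18, replicate 2 was highest in these genes (3876 CPM) and replicate 4 in Clock (13.3 CPM). Among 10 markers of macrophages and dendritic cells, 1 differed between the times, against 19.5% of all tested genes. This was C1qa, a complement gene, with an alternation of 0.65 (adjusted p = 0.000352) and means of 19.5, 15.5, 18.5 and 14.8 CPM in the order of the times. The 10 markers together were at 66.1 to 87.3 CPM at ZT0, 59.0 to 83.8 at ZT6, 72.03 to 83.8 at ZT12 and 60.1 to 70.4 at ZT18. The part of the early response or of these cells in the Clock values was not tested. Without the 3 most epithelial libraries named above, the adjusted p for any difference in Clock was 0.0157.

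Npas2 (ENSMUSG00000026077, chr1:39193731-39363236, plus strand), which can stand in for CLOCK in the brain and other tissues, was close to absent. It had 15 counts in all 20 libraries together and 0 in 13 of them. The ZT0 libraries held 1, 1, 0, 0 and 0 counts and the ZT6 libraries 1, 0, 0, 6 and 0. The ZT12 libraries held 0, 0, 4, 0 and 0 counts and the ZT18 libraries 0, 1, 0, 1 and 0. A count of 0 allows up to 3 counts, or 0.0431 to 0.0927 CPM depending on the library, so a difference over the day was not detectable at this depth. These limits, like the counting errors above, cover counting error only. The relatives Arntl2 and Rorb, which encode BMAL2 and RORβ, did not pass the filter either, with at most 7 and 2 counts in any library.

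**Figure D3:**
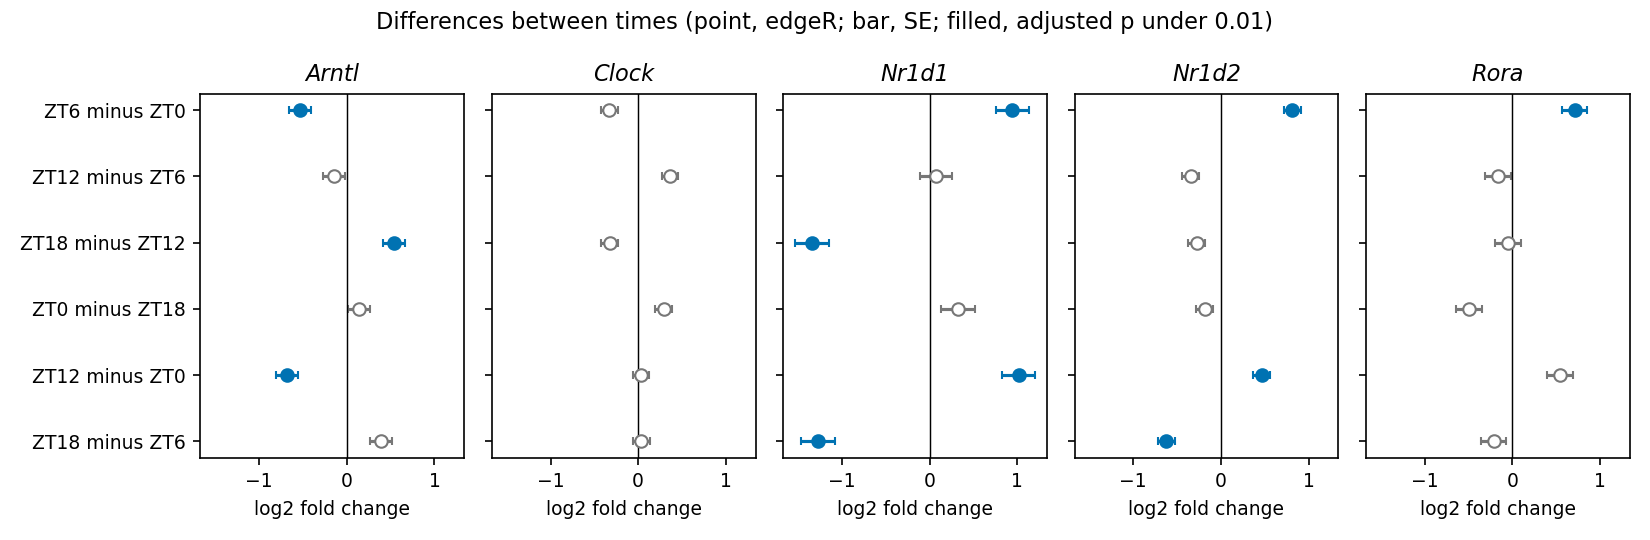
Each panel is 1 tested member, and each point is the edgeR log2 fold change of 1 pair of times with its standard error, filled where the adjusted p was under 0.01. Arntl lies at -0.68 in ZT12 minus ZT0 where Nr1d1 lies at 1.02, and Clock has no filled point.

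Read by pair of times, 4 of 5 tested members were called between ZT0 and ZT6 (Arntl lower and Nr1d1, Nr1d2 and Rora higher at ZT6), where 8.78% of all tested genes were. The count was 3 of 5 between ZT0 and ZT12 (3.86% of all tested genes), 2 of 5 between ZT6 and ZT18 (8.24%) and 2 of 5 between ZT12 and ZT18 (9.94%). The groups of 2 members, Nr1d1 and Nr1d2, did not overlap between ZT6 and ZT18 (11.5% of all tested genes), and those of 1 member, Nr1d1, between ZT12 and ZT18 (12.6%). Between ZT6 and ZT12, edgeR called 0 of 5 members where it called 4.58% of all tested genes, 2 had an unadjusted p under 0.05, and DESeq2 called 2. Between ZT18 and ZT0, edgeR and DESeq2 called 0 of 5, where edgeR called 7.57% of all tested genes, and 2 members had an unadjusted p under 0.05. The share of all tested genes with an unadjusted p under 0.05 was not counted for either pair, so these unadjusted counts cannot be set against it. The comparisons share libraries, so their counts do not add up as separate results.

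A cosine with a period of 24 hours was called for 3 of 5 tested members, Arntl, Nr1d1 and Nr1d2, where 11.3% of all tested genes were called. Arntl had a peak-to-trough fold of 1.72 and a fitted peak at 22.0 ± 0.62 hours (SE, adjusted p = 8.90e-05), late in the dark phase. Nr1d1 had the widest swing of the members, 3.09-fold, with a peak at 8.57 ± 0.44 hours (adjusted p = 3.46e-07). Nr1d2 had a 1.72-fold swing that peaked at 8.44 ± 0.47 hours (adjusted p = 2.39e-05). The median swing of all genes with a called cosine was 1.32-fold, and 98.3% of them had a smaller swing than Nr1d1, against 87.4% and 87.0% for Arntl and Nr1d2.

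The fitted peaks of Arntl and Nr1d1 were 13.4 hours apart, and this distance stayed between 13.0 and 14.3 hours in 28 alternatives. Nr1d1 peaked 0.13 hours after Nr1d2, with a lag between -0.14 and 0.63 hours in the same alternatives. With 4 samplings 6 hours apart, each peak time is that of a cosine laid through the group means and not an observed maximum. Rora had a fitted swing of 1.503-fold with a peak at 10.6 ± 0.95 hours that was not called (adjusted p = 0.0123). It passed with DESeq2 (adjusted p = 0.00518), which brought the count to 4 members, and without ZT12 replicate 2 (0.00714) or replicate 4 (0.00529). Clock had no cosine to speak of in this fit, with a swing of 1.04-fold (adjusted p = 0.922).

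The 12-hour term was called for Clock, as above, and for Nr1d2, at -0.53 (adjusted p = 0.00941). The negative sign means that ZT6 and ZT18 together stood above ZT0 and ZT12, and the call was lost in 18 of 28 alternatives, 15 of them with a single library left out. Across the leave-one-out fits the term ranged from -0.59 to -0.47. With JTK on double plotted data, the study reported significant oscillations of Arntl, Nr1d1 and Per2 in its RNA sequencing of these cells. It also reported them independently by RT-PCR. Here the JTK rank test was given each library once. It called 0 of 5 members and 227 of all tested genes (1.63%), while 4 members had an unadjusted p under 0.05. The share of all tested genes under that limit was not counted. The test as run allowed a peak only at the 4 sampled times and ranked the 2 flanking times as 1 group. A gene high at 2 neighbouring times, such as Nr1d1 at ZT6 and ZT12, therefore cannot reach the lowest p. Adjusted p-values of the JTK test were 0.0212 for Arntl, 0.0499 for Nr1d1 and for Nr1d2, 0.164 for Rora and 1 for Clock.

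Per transcript length, Nr1d2 was the most abundant member. The deposited FPKM, which divide by library total and gene length, averaged 13.9 ± 3.34 for Nr1d2, 2.68 ± 0.400 for Clock, 2.45 ± 0.633 for Arntl, 1.41 ± 0.583 for Nr1d1, 1.30 ± 0.279 for Rora and 0.00987 ± 0.0197 for Npas2 (SD over 20 libraries). Only Nr1d2 stood clear of the others, since its lowest library (9.38 FPKM) was above the highest of any other member (3.54 FPKM). Over all 20 libraries the values of Clock and Arntl overlapped, as did those of Nr1d1 and Rora, but their order moved with the time of day. At ZT12 every Clock value (2.60 to 3.06 FPKM) was above every Arntl value (1.37 to 2.32 FPKM). FPKM were 1.03 ± 0.259 for Nr1d1 and 0.994 ± 0.0755 for Rora at ZT0, 1.89 ± 0.439 and 1.30 ± 0.292 at ZT12, and 0.787 ± 0.102 and 1.33 ± 0.166 at ZT18 (SD, n = 5 each). At ZT18 every Rora value (1.14 to 1.503 FPKM) was above every Nr1d1 value (0.648 to 0.922 FPKM). These orders between genes depend on the gene lengths used. The FPKM implied 2785 bases for Rora and 1751 for Nr1d1, where all GENCODE exons cover 13071 and 3077. For Clock and Arntl they implied 4897 and 2904 bases, against 13727 and 7523. No level was computed with the longer lengths.

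**Figure D4:**
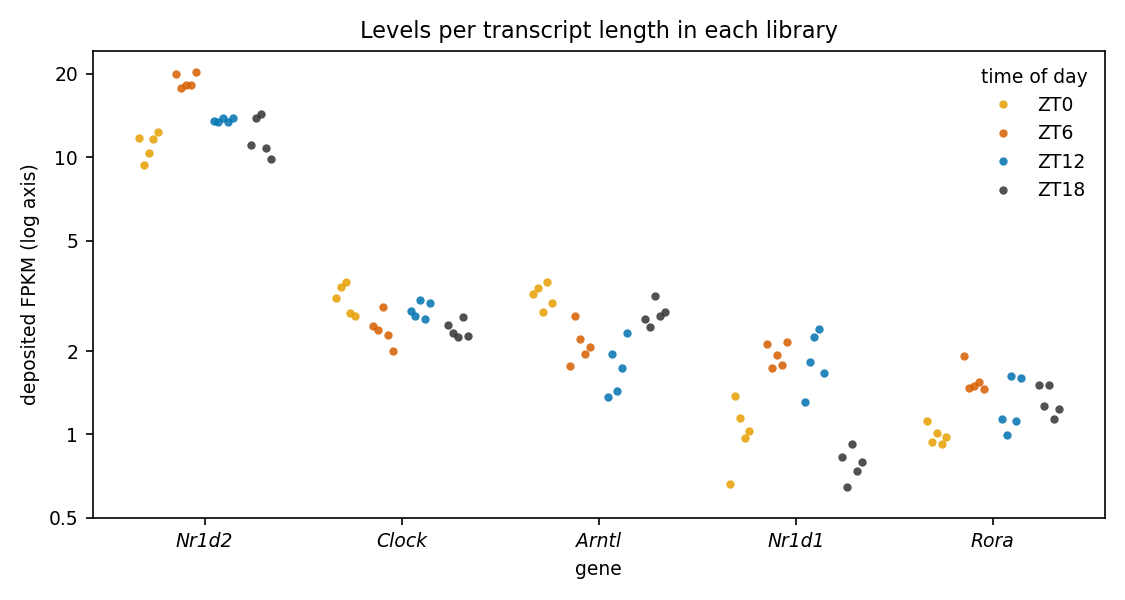
Deposited FPKM of the 5 tested members in every library, on a log axis and coloured by time of day. Nr1d2 lies between 9.38 and 20.4 FPKM and every other member between 0.648 and 3.54 FPKM.

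Ratios within a library do not depend on how libraries were scaled. The log2 ratio of Arntl to Nr1d1 counts, with 0.5 added to each, was 2.37 ± 0.42 at ZT0 and 2.51 ± 0.10 at ZT18, against 0.85 ± 0.33 at ZT6 and 0.63 ± 0.46 at ZT12 (SD, n = 5 each). Every one of the 10 libraries of ZT0 and ZT18 was at 2.01 or more, and every one of ZT6 and ZT12 at 1.36 or less, so the ratio did not overlap between these pairs of times. No test was made on it, since it is a score over members that were tested singly.

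The balance of the receptor genes also shifted. The ratio of Nr1d2 to Nr1d1 FPKM was 11.5 ± 4.10, 9.76 ± 0.426, 7.55 ± 1.87 and 15.5 ± 3.52 in the order of the times (SD, n = 5 each). All ZT18 libraries (12.4 to 21.4) were above all ZT6 and ZT12 libraries (5.59 to 10.3), and ZT0 (6.83 to 17.8) overlapped each other time. Clock over Arntl was 0.986 ± 0.184, 1.15 ± 0.214, 1.67 ± 0.396 and 0.886 ± 0.118 in the same order, so that this ratio was highest at ZT12.

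**Figure D5:**
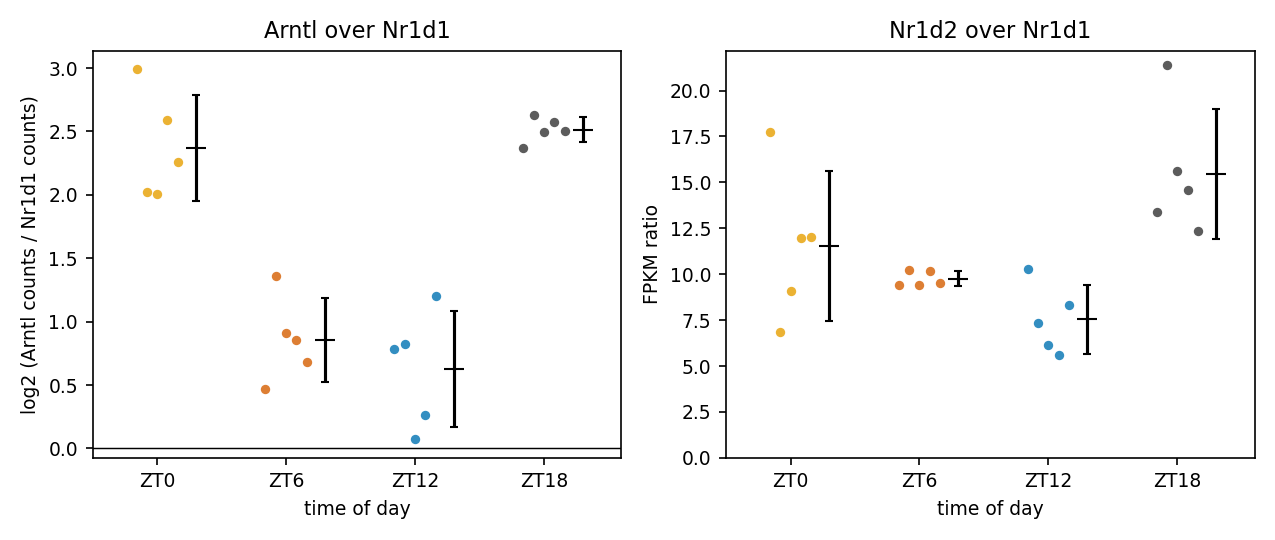
The left panel gives the log2 ratio of Arntl to Nr1d1 counts and the right panel the ratio of Nr1d2 to Nr1d1 FPKM in each library by time of day, with bars for the mean ± SD of 5 libraries. The left ratio lies at 2.01 or more in all libraries of ZT0 and ZT18 and at 1.36 or less in all of ZT6 and ZT12.

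Across the 20 libraries, which share the time of day, the log2 CPM of Arntl had a Pearson r of -0.70 with Nr1d1, -0.60 with Nr1d2 and -0.53 with Rora. The receptors ran together, with r of 0.67 for Nr1d1 and Nr1d2, 0.72 for Nr1d2 and Rora, and 0.44 for Nr1d1 and Rora. Clock had r between -0.37 and 0.12 with the other members. These values are descriptions over 10 pairs.

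Out of 10803 genes that averaged 1 CPM or more, those whose log2 CPM over the 20 libraries was most like that of Arntl, Clock, Nr1d1 and Nr1d2 were listed as a description, with Pearson r as the measure. For Arntl these were F9 (r = 0.89), Psd (0.86), Asb2 (0.86), Nfkb2 (0.86) and Traf1 (0.85). Nfkb2 encodes an NF-κB subunit and Traf1 an adaptor of TNF receptors. For Nr1d1 they were Adssl1 (0.90), Asns (0.90), Htatip2 (0.89), Ctse (0.89) and Cox7a2l (0.88), where Asns encodes asparagine synthetase. Nr1d2 was most like Ets1 (0.88), Gm15513 (0.87), Clint1 (0.86), Oxr1 (0.85) and Ppp3ca (0.84), of which Ets1 is a lymphocyte transcription factor. Clock was most like Tnpo3 (0.87), Foxj3 (0.86), Klhl2 (0.83), Cyld (0.82) and Spag7 (0.81). None of these 4 lists of 5 genes held a member. No list was made for Rora or Npas2.

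The genes around the members in the loop were counted in lists chosen by name. Of 12 period, cryptochrome and clock output genes, 11 were tested and 7 differed between the times, against 19.5% of all tested genes. Tef, a D-box activator, was at 14.8 ± 1.45, 21.9 ± 2.68, 24.6 ± 1.15 and 17.5 ± 0.847 CPM in the order of the times, and peaked at 10.4 hours (any-time adjusted p = 2.45e-08), near the receptors. Per1, the early-responding period gene, was at 197 ± 14.8, 150 ± 19.5, 196 ± 15.98 and 131 ± 10.2 CPM at the 4 times (adjusted p = 1.61e-06), and alternated as Clock did (0.97 on the log2 scale, adjusted p = 7.59e-07). Nfil3, a D-box repressor, was at 17.8 ± 3.27, 30.7 ± 4.48, 20.6 ± 3.82 and 39.8 ± 5.30 CPM (adjusted p = 4.78e-05), low where Clock was high (alternation -1.74, adjusted p = 2.72e-05). Bhlhe41, an E-box repressor, had its lowest mean at ZT6 (46.3 ± 4.80) and its highest at ZT0 (62.2 ± 4.92 CPM, SD, n = 5 each, adjusted p = 6.95e-05). Per2, Per3 and Bhlhe40 were also called, and Cry1, Cry2, Dbp and Ciart were not. From ZT0 to ZT12, 2 of the 11 rose and 0 fell, where 3.86% of all tested genes were called in either direction, with a median log2 change of 0.20 beside -0.00 over all tested genes.

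Cofactors and partners of the member proteins were counted in the same way. Of 9 corepressors and coactivators of REV-ERB and ROR, 3 differed between the times, against 19.5% of all tested genes, which were Nrip1 (adjusted p = 0.000667), Tbl1x (0.00144) and Tbl1xr1 (0.00826), and all 3 had their highest mean at ZT18, with 319, 22.1 and 27.6 CPM. From ZT12 to ZT18, 2 of the 9 rose and 0 fell, where 9.94% of all tested genes were called in either direction, with a median of 0.01 beside 0.01 over all tested genes. Of 22 kinases, ubiquitin ligases and chromatin partners of the loop, 21 were tested and 7 were called, against the same 19.5%. In ZT0 minus ZT18, 2 were higher and 4 lower, where 7.57% of all tested genes were called in either direction, with a median of -0.00 beside 0.01 over all tested genes. Sirt1, a deacetylase that binds the CLOCK complex, was at 24.6 ± 1.70 CPM at ZT18 and between 17.2 and 18.1 CPM at the other times (adjusted p = 2.65e-06). Ep300, a histone acetylase, was at 55.6 ± 4.45, 49.2 ± 3.44, 59.3 ± 2.45 and 47.6 ± 3.82 CPM (adjusted p = 0.000195), which again was the alternation of Clock (0.49, adjusted p = 7.81e-05). Kdm5a, a histone demethylase, was highest at ZT6 (57.7 ± 3.06 CPM, SD, n = 5 each, adjusted p = 0.000388).

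Heme is the ligand of the REV-ERB proteins, and 1 of 12 tested genes of its synthesis and breakdown differed between the times, where 19.5% of all tested genes did. That gene was Hmox1, which degrades heme, at 4.51 ± 1.40, 4.00 ± 1.53, 11.4 ± 4.61 and 7.18 ± 3.07 CPM in the order of the times (SD, n = 5 each, adjusted p = 0.00882). Hmox1 also responds to stress, and the summed level of 10 heat shock genes ranged from 639 to 1258 CPM in ZT0 libraries, 367 to 1355 in ZT6, 1010 to 5114 in ZT12 and 618 to 3618 in ZT18 libraries. The part of heat shock in the Hmox1 values was not tested.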

How the data were processed

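The labels put the 20 libraries in 4 groups of 5 by zeitgeber time. The study describes these animals as wild-type, with 5 mice per time, taken here as 1 per library. Libraries were made with a NEBNext Ultra kit and poly-T beads. The authors deposited raw counts per gene and FPKM. For the aligner, the build, the counting tool and the strand, the entry is: not given in the sources used here. The deposited FPKM were found to be counts over library total and a fixed gene length (relative tolerance 1e-06). Symbols came from GENCODE M21 for 46488 of the 47069 identifiers, from the FPKM table for 42, and 539 had none. A library held 35.6 to 68.0 M counts.

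Counts were analysed in R 4.3.3 with edgeR 4.0.16 and limma 3.58.1 (filterByExpr by group, TMM, robust quasi-likelihood, 4 groups, no covariate). Two-sided tests asked for a difference at any time, for a 24-hour cosine from the 12-hour contrasts, for the 12-hour term left over, and for 6 pairs of times, each with Benjamini-Hochberg adjustment over 13967 genes and a threshold of 0.01. The common biological coefficient of variation was 0.224. The standard error of a contrast was taken as its absolute log2 fold change over the square root of its quasi-likelihood F. Standard errors of peak times were derived from those of the 2 contrasts, treated as independent. Alternatives were a total of 10 counts as the filter (which the study used), size factors of DESeq2, library totals, the immunoglobulin genes left out, DESeq2 1.42.0, JTK, a replicate block, 3 libraries with the most epithelial or lymphoid markers left out, and each library left out in turn. For the Arntl to Nr1d1 ratio, 1 and 5 were tried in place of the 0.5 added to counts. Sequences came from RefSeq (GRCm38.p6), matched by symbol for all 6 members. JTK, motif searches and figures used Python 3.11.15, numpy 2.4.6, scipy 1.17.1, pandas 2.3.3 and matplotlib 3.10.9. The fits were tested on simulated data.

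The members, lists and tests were chosen with earlier results of these data known. Named were all members, the relatives Arntl2 and Rorb, up to 4 called genes per pathway list by any-time p, and the 5 genes most like each of Arntl, Clock, Nr1d1 and Nr1d2. Some genes that this rule covers are not reported here. The remaining period and output genes, marker genes and Thra were named after their values were seen.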

Additional observations from a re-analysis of the deposited data

Results flagged for a closer look

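Within the groups of 5, a single library stood far from the other 4 in 3 of the 24 combinations of member and time examined. For values that spread normally, chance flags about 1 in 20. That rate does not hold for Npas2, whose groups were mostly counts of 0, so that a few counts in 1 library are enough for a flag. Npas2 reached 0.119 CPM in ZT6 replicate 4, from 6 counts, where the others of that time held at most 0.0225 CPM. It reached 0.103 CPM in ZT12 replicate 3, from 4 counts, where the others held 0. Rora was at 5.32 CPM in ZT6 replicate 1, from 236 counts, and at 3.86 to 4.21 CPM in the other ZT6 libraries. Without that library the Rora difference between ZT6 and ZT0 was 0.63 on the log2 scale (adjusted p = 0.00487, edgeR), and it remained called.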

How the results depend on the processing

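No result changed direction past the threshold in any alternative. The number of members that differed between any times stayed at 4 or 5, and the number of all genes at 2122 to 3390. With JTK, run here with the limits given above, 0 members had a called 24-hour rhythm. The members with a called 12-hour term fell from 2 to 1 with a total of 10 counts as the filter, with the replicate block and without the 3 most epithelial libraries, and ranged from 1 to 2 when single libraries were left out. In ZT12 minus ZT6 the count rose from 0 to 1 with a total of 10 counts, library totals, no immunoglobulin genes or without the 3 libraries highest in T cell and ILC markers, to 2 with DESeq2, and ranged from 0 to 1 when single libraries were left out. In ZT18 minus ZT12 it was 1 without ZT12 replicate 1 or 3, with a range of 1 to 3. Library totals moved the median of all genes in ZT12 minus ZT0 by -0.17 (log2), and Nr1d2, at 0.30 on that scale, was then not called. Without the 3 most epithelial libraries the adjusted p of Arntl in ZT6 minus ZT0 was 0.0119. The Arntl to Nr1d1 ratio moved by less than its spread with other added counts. Replicate numbers did not pair the libraries: same-numbered libraries correlated at a mean r of 0.000527 (-0.117 to 0.0762 over 30 pairs) and others at -0.000125. With the replicate block, 2615 genes and all 5 members differed between times, and Nr1d2 in ZT12 minus ZT0 had an adjusted p of 0.0191. Depth limited Npas2. The expected counting error exceeded the spread between animals for Nr1d1 at ZT18 and for Rora at ZT0. It was below that spread at the other times of these genes, as for Rora at ZT12 (8.06% from counting, 22.3% between animals).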
